A study of Mus musculus with 246 samples.

Results

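The complement system is a set of plasma and tissue proteins that mark surfaces for removal and call in immune cells. In the classical route, C1q binds a target and switches on its partner proteases C1r and C1s, which cut C4 and C2 to build an enzyme that cleaves C3. Fragments of C3 tag the surface for uptake by phagocytes, and the small fragments C3a and C5a act on the receptors C3aR1 and C5aR1, while C1 inhibitor, the product of Serping1, blocks C1r and C1s. In the brain, microglia are the main source of C1q, and C1q and C3 are known for tagging synapses that microglia remove during development.

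The 9 complement genes described here were listed by name, out of 56691 genes in the deposited table. They are the C1q chain genes C1qa, C1qb and C1qc, the protease gene C1ra, the cleaved components C4b and C3, the receptor genes C3ar1 and C5ar1, and the inhibitor gene Serping1. RNA was sequenced from tissue punches of 41 adult male mice of the outbred CD1 stock, 1 library per mouse and region, with total counts between 20804219 and 43351397. The cortical regions were the medial prefrontal (mPFC) and the anterior cingulate cortex (ACC). The others were the ventral hippocampus (vHipp), the dorsomedial part of the thalamus (DMT), the basolateral nucleus of the amygdala (BLA) and the shell of the nucleus accumbens (Nacc). Ctrl_Veh mice grew up with standard bedding and a dam that received an empty slow-release gel. ELA_Veh mice had the same vehicle but limited bedding and nesting material from postnatal day 2 to 9, a model of early life adversity (ELA), and ELA_SAFit2 mice had the same adversity with a dam that received SAFit2, an inhibitor of the stress protein FKBP51 that reached the pups through the milk. No control litters with SAFit2 are among these groups. Mice of each condition were taken either without social interaction (NI, 7 mice per condition) or after 10 minutes with an unfamiliar conspecific (SI, 6 Ctrl_Veh, 7 ELA_Veh and 7 ELA_SAFit2 mice). Each library is 1 region of 1 mouse, and the mouse is the replicate.

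All 9 genes passed the filter on low counts, and 17381 genes were tested across the regions. In 12 of the 41 Nacc libraries, genes that differ between individual mice matched another mouse than the labelled one, against 0 in each of the other 5 regions, so levels and calls between regions that rest on the Nacc are also given without them. Correlations averaged over regions include them. Levels are CPM, counts scaled to a common library size with TMM factors. By median, the summed marker genes of each region were highest where the labels place them, although single BLA libraries reached 2160 CPM of the Nacc markers, within the Nacc range of 760.9 to 2878 CPM. Summed thalamic markers reached 1793 to 2721 CPM in the DMT and at most 423.7 CPM elsewhere. Choroid plexus markers, which should be low in a punch of brain tissue, ran from 23.05 to 5765 CPM in the BLA and from 11.14 to 1413 CPM in the DMT, but stayed at or under 53.1 CPM in the mPFC, ACC and Nacc. A punch holds many cell types, and in such bulk tissue fewer cells of a type and less RNA per cell cannot be told apart.

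C1ra and C4b have near-identical neighbors, which bears on how their reads could be assigned. C1ra (chr6:124512405-124523443, plus strand, GRCm38) lies close to C1rb (chr6:124570294-124581171), and 56.9% of the 31-base words of its transcript also occur in that of C1rb. The following 120 bases are from exon 11 of each gene, at chr6:124522202-124522321 and chr6:124580251-124580370, and the capitals mark the 6 bases at which they differ.
C1ra: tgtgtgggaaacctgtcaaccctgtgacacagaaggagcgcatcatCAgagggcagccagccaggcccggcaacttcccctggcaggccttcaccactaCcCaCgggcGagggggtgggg
C1rb: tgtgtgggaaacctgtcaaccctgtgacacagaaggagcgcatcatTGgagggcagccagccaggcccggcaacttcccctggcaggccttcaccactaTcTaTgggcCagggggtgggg
C4b (chr17:34728380-34743882, minus strand) shares 48.3% of its words with C4a (chr17:34809092-34823464). A matching stretch of exon 29 of C4b (chr17:34733086-34733205) and exon 30 of C4a (chr17:34813748-34813867) differed at 4 of 120 bases, again in capitals.
C4b: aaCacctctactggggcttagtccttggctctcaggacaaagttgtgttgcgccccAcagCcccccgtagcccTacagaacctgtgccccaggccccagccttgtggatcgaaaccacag
C4a: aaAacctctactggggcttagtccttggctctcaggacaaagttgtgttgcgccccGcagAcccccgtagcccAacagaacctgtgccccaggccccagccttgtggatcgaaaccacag
Reads from such stretches can be split only through the few differing bases, so the levels of C1ra and C4b are uncertain to the extent that the counting divided reads between the copies. The calls between regions that change when the counts of both copies are summed are given with C4b, and for C1ra none of the 15 changed.

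**Figure D1:**
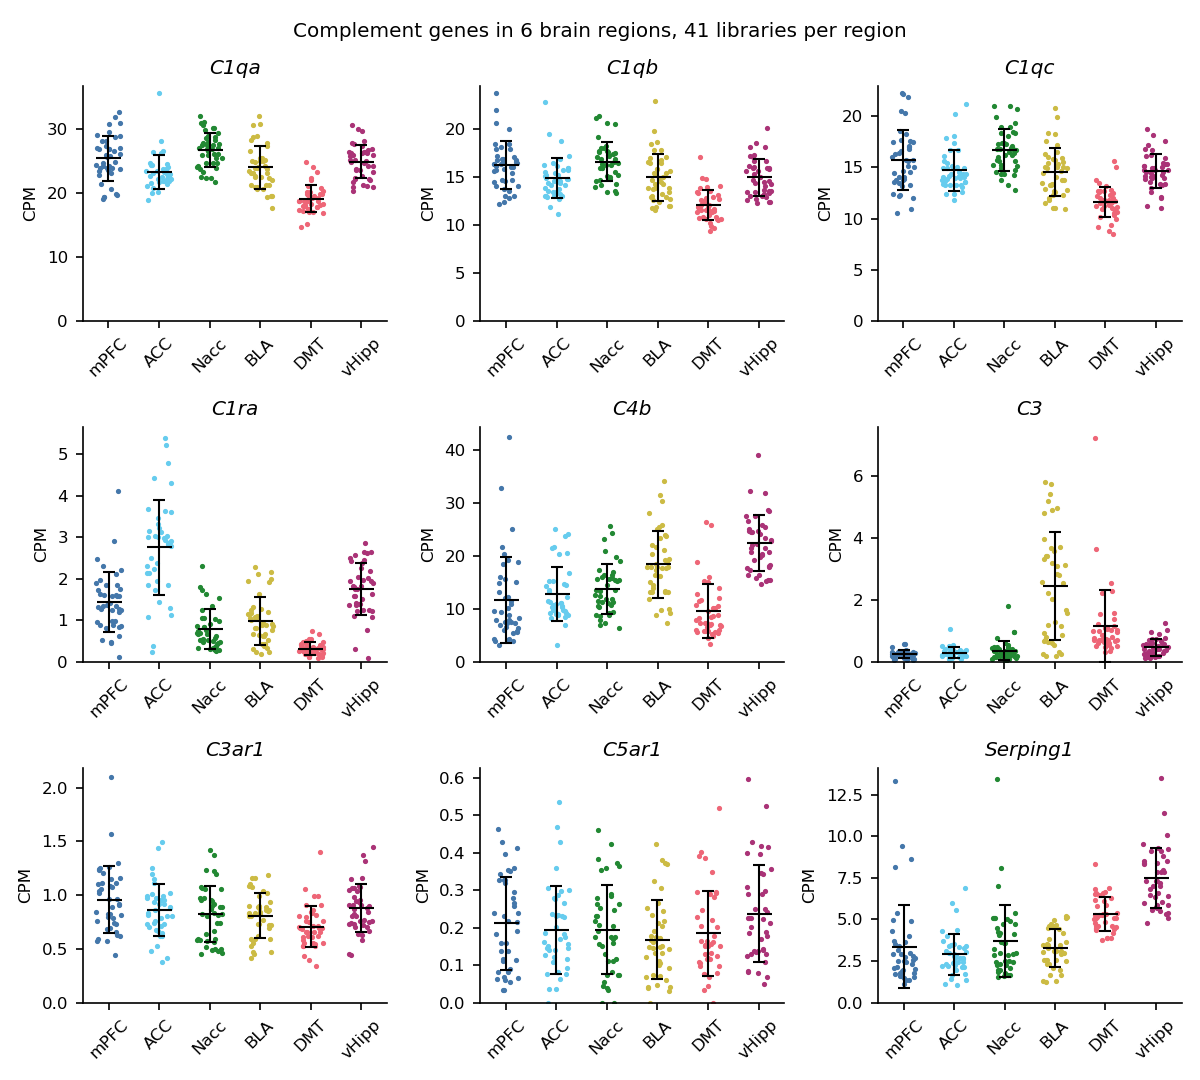
Level of each complement gene (CPM, y axis) in the 6 regions (x axis); each point is 1 library, bars are the mean and SD over 41 mice. C1qa, C1qb and C1qc were lowest in the DMT, C1ra was highest in the ACC, C3 in the BLA, and C4b and Serping1 in the vHipp.

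The first question was how the levels of the complement genes differ between regions. Over the 15 pairs of regions, 87 of 135 tests passed an adjusted p of 0.05 in edgeR's quasi-likelihood test. The regions are different tissues, and most genes differed between them, so these counts are set beside the share of all tested genes. ACC and mPFC differed in 3 of the 9 genes, against 38.7% of all genes. Against mPFC, the Nacc differed in 2 genes (75.4% of all genes), the BLA in 7 (74.4%), the DMT in 7 (82.7%) and the vHipp in 6 (74.9%). Against ACC, the Nacc differed in 5 genes (76%), the BLA in 3 (74.9%), the DMT in 8 (82.4%) and the vHipp in 5 (76.2%). Against Nacc, the BLA differed in 6 genes (68.5%), the DMT in 8 (83%) and the vHipp in 6 (75.5%). The DMT and the BLA differed in 8 genes (82.9%), the vHipp and the BLA in 5 (74.6%) and the vHipp and the DMT in 8 (83.3%). The share of the complement genes that differed was near or below that of all genes, and nothing is read from these counts about the 9 genes as a group. Of the 135 directions, 121 were the same in NI and SI mice, which are different animals. In each set fitted alone 77 and 64 tests passed, 58 of them in both with the same direction and 0 with opposite directions. The pairs that passed in both sets were 12 of 15 for C1ra, 10 for C3, 9 for Serping1, 8 for C1qc, 7 for C4b, 6 for C1qa, 5 for C1qb, 1 for C3ar1 and 0 for C5ar1. The share of all genes that passed or kept their direction in both sets is not given here. The counts for the sets fitted alone therefore show nothing particular to the 9 genes.

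To compare genes, CPM were divided by the kilobases of all annotated exons of a gene, which can exceed the length of its transcript. On this scale the C1q chains were highest. The lowest and highest region means in CPM per kilobase were 18.39 and 25.78 for C1qa, 11.08 and 15.23 for C1qb and 6.036 and 8.649 for C1qc. C4b followed with 1.68 to 3.924 and Serping1 with 1.25 to 3.215. C1ra (0.1056 to 0.9249), C3 (0.04738 to 0.476), C3ar1 (0.1645 to 0.2228) and C5ar1 (0.0652 to 0.0925) were low, and the genes of the recognition protein were thus well above those of the receptors in every region.

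The 3 C1q chains form 1 protein, and their levels varied least between mice, with coefficients of variation of 9.917 to 18.61% within regions, against 18.92% or more for each of the other 6 genes. Their genes are neighbors on chromosome 4 (C1qb at chr4:136880129-136886187, C1qc at chr4:136889804-136893065 and C1qa at chr4:136895917-136898803, all on the minus strand). C1qa ranged from 14.68 over 18.77 to 24.86 CPM (lowest, median and highest library) in the DMT and from 21.78 over 26.93 to 32.13 CPM in the Nacc. The DMT mean of 19.12 ± 2.116 CPM (SD, n = 41) was the lowest and the Nacc mean of 26.81 ± 2.659 CPM the highest, although the libraries of the 2 regions overlap. C1qa was lower in the DMT than in the Nacc by 1.40-fold (log2 -0.49 ± 0.04 SE, adjusted p = 2.9e-29). C1qb and C1qc followed the same order at its ends, with 12.05 ± 1.567 and 11.66 ± 1.463 CPM in the DMT and 16.57 ± 2.038 and 16.7 ± 2.057 CPM in the Nacc. Their differences were log2 -0.46 ± 0.04 (adjusted p = 3.94e-21) and -0.52 ± 0.04 (adjusted p = 3.49e-24). The DMT was lower than each of the other 5 regions for all 3 chains. Between the DMT and the Nacc, neighboring regions in the order were close. C1qa in the Nacc and mPFC differed by log2 0.08 (adjusted p = 0.05), in mPFC and vHipp by 0.03 (adjusted p = 0.467), in vHipp and BLA by 0.05 (adjusted p = 0.224) and in BLA and ACC by 0.05 (adjusted p = 0.249). With the mouse as a replicate block, the Nacc and mPFC differed in C1qa (adjusted p = 0.0206) and C1qc (adjusted p = 0.0134), and the ACC and mPFC in C1qc (adjusted p = 0.0309). Without the 12 Nacc libraries the Nacc means were 26.5 CPM for C1qa, 16.3 for C1qb and 16.6 for C1qc.

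Markers of microglia moved with these levels. The 15 microglial genes, of which 0 were at 0 in all libraries of a region, summed to 251.6 to 324.2 CPM in the DMT, 326.8 to 478.4 CPM in the mPFC and 354.4 to 500.0 CPM in the Nacc, and their part in the differences of C1q between regions was not tested. Per kilobase of annotated exons, C1qa was the highest of the chains in every region, with a median ratio of 1.63 to 1.73 to C1qb and of 2.93 to 3.15 to C1qc. The exon lengths were 1040 bases for C1qa, 1088 for C1qb and 1931 for C1qc. The ratio to C1qc thus depends much on this length. These ratios lay between 1.34 and 2.14 and between 2.46 and 3.98 in the single libraries. The promoter of C1qb is shown because it holds the letters GAGGAA, the core that the myeloid factor PU.1 is known to bind, in capitals, 30 to 25 bases before the transcription start. It is the 250 bases before the start given by RefSeq (GRCm38.p6, chr4:136886201-136886450, minus strand).
C1qb promoter: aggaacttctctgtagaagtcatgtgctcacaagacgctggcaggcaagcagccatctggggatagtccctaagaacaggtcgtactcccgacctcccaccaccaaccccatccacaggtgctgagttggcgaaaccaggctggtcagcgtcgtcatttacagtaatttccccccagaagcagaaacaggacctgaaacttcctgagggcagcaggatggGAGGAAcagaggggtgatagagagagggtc
On either strand, 23.25% of 32851 RefSeq promoters hold these letters in the same window, and among the 6 complement genes with a promoter in that table C1qb and C1qc do. The longer GAGGAAGT, which contains it, occurs in 2.44% of promoters and here in that of C1qc alone, where it lies on the other strand, 195 to 188 bases before the start (chr4:136892915-136893164, minus strand, capitals as ACTTCCTC).
C1qc promoter: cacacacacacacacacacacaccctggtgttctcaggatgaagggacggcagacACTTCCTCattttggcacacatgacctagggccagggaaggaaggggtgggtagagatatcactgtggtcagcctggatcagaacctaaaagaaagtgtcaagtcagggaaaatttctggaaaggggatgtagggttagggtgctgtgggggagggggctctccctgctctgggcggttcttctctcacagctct
The start of C1qc in GENCODE M21 (chr4:136893065) lies inside the window shown for C1qc, between the match and the RefSeq start. The distance of the match to the start therefore depends on the annotation. A match describes the letters and is not evidence of binding.

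C1ra, which encodes the protease that C1q activates first, was the only one of the 9 genes that differed in all 15 pairs of regions. In the ACC it ranged from 0.2431 over 2.884 to 5.387 CPM, in the vHipp from 0.0848 over 1.796 to 2.859 CPM and in the mPFC from 0.1073 over 1.353 to 4.112 CPM. The BLA (0.18, 0.8845 and 2.276 CPM) and the Nacc (0.2612, 0.6623 and 2.316 CPM) were lower, and the DMT was lowest with 0.0979, 0.3049 and 0.7512 CPM. The lowest ACC and mPFC libraries lay within the DMT range and the lowest vHipp library below it, so all regions overlap with the DMT. The DMT was below the ACC by 3.07 on the log2 scale (log2 -3.07 ± 0.17, adjusted p = 2.93e-45). Neighbors in this order differed by 0.62 (ACC over vHipp, adjusted p = 3.88e-05), 0.35 (vHipp over mPFC, adjusted p = 0.0246), 0.48 (mPFC over BLA, adjusted p = 0.00291), 0.34 (BLA over Nacc, adjusted p = 0.0417) and 1.28 (Nacc over DMT, adjusted p = 5.88e-12). The step from BLA to Nacc was log2 0.25 with an adjusted p of 0.18 without the 12 Nacc libraries. With the counts of C1ra and C1rb summed, all 15 pairs still passed, and the DMT was below the ACC by log2 -2.81. In libraries low in choroid plexus markers, described below, the difference between DMT and BLA no longer passed.

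C4b encodes C4, the first component that activated C1 cuts. Its highest region was the vHipp, with 14.66, 21.97 and 39 CPM as the lowest, median and highest library, and its lowest the DMT, with 3.315, 7.827 and 26.41 CPM. The vHipp was above the DMT by log2 1.22 ± 0.14 (adjusted p = 2.75e-16), above the BLA, the next in order, by 0.28 (adjusted p = 0.0447), and the BLA was above the Nacc by 0.43 (adjusted p = 0.00247). The further steps, from Nacc to ACC, mPFC and DMT, did not pass (adjusted p = 0.513, 0.34 and 0.102). The difference between vHipp and BLA was lost without the 12 Nacc libraries, which changes the fit as a whole (adjusted p = 0.054), and with C4b and C4a summed (log2 0.20, adjusted p = 0.0903). The same sum added 2 calls, with the DMT below the mPFC (log2 -0.35 ± 0.11, adjusted p = 0.00327) and the Nacc above it (log2 0.35 ± 0.11, adjusted p = 0.00361). For C4b alone the latter was 0.27 (adjusted p = 0.0608). With the mouse as a replicate block it passed for C4b alone too (log2 0.32 ± 0.12, adjusted p = 0.0119, edgeR). In libraries low in choroid plexus markers, described below, the DMT was below the mPFC for C4b alone (log2 -0.59 ± 0.17), which passed. In the mPFC the libraries were most spread out, from 3.08 over 8.905 to 42.34 CPM, with a coefficient of variation of 69.94%, against 23.67% in the vHipp. The highest mPFC library, of a Ctrl_Veh NI mouse, also had the highest Serping1 in the mPFC (13.3 CPM) and 1610 CPM of summed meningeal fibroblast markers, against a median of 207.5 CPM in this region.

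C3, the component on which all complement routes meet, was low in cortex and Nacc and had the largest difference between 2 regions of the 9 genes. The mPFC ranged from 0.0415 over 0.2404 to 0.5892 CPM, with 1 to 19 counts per library. In the BLA it ranged from 0.1756 over 2.535 to 5.805 CPM and in the DMT from 0.311 over 0.7927 to 7.239 CPM. The lowest BLA libraries thus lay within the mPFC range and the highest far above it. BLA exceeded mPFC by log2 3.27 ± 0.22 (adjusted p = 1.21e-34) and DMT by 1.11 (adjusted p = 2.11e-08), and DMT exceeded vHipp by 1.23 (adjusted p = 1.28e-08). The 3 lower steps, vHipp to Nacc (0.45, adjusted p = 0.0549), Nacc to ACC (0.21, adjusted p = 0.412) and ACC to mPFC (0.27, adjusted p = 0.409), did not pass. The first of these passed with the mouse as a replicate block (adjusted p = 0.0459).

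C3 moved with markers of choroid plexus, the tissue that projects into the ventricles and secretes cerebrospinal fluid. In 6 of the 41 BLA libraries the 6 choroid plexus genes summed to 23.05 to 41.01 CPM, within the Nacc range, and C3 was 0.176, 0.262 and 0.649 CPM (lowest, median, highest). In the other 35 BLA libraries the markers summed to 112 to 5770 CPM, and C3 was 0.551, 2.83 and 5.81 CPM. The 2 sets of BLA libraries overlap between 0.551 and 0.649 CPM only. A limit of 60 CPM, set after the values were seen, separates these libraries and leaves 41 libraries each of mPFC, ACC and Nacc, 6 of the BLA, 22 of the DMT and 36 of the vHipp. Among these, C3 in the BLA was at log2 0.26 ± 0.40 to the mPFC (adjusted p = 0.617), -0.01 ± 0.35 to the ACC (adjusted p = 0.99) and 0.57 ± 0.40 below the vHipp (adjusted p = 0.215). The order of DMT and BLA turned, with C3 higher in the DMT by 1.32 ± 0.41 (adjusted p = 0.00295). C3 in the DMT stayed above the mPFC, by 1.58 ± 0.21 (adjusted p = 5.8e-12), where 22 libraries with 11.1 to 39.7 CPM of the markers held 0.311, 0.703 and 1.55 CPM of C3. The single highest C3 value, 7.24 CPM in a DMT library of an ELA_Veh NI mouse, came with 1080 CPM of the markers, and the next highest DMT library had 3.65 CPM of C3. Whether choroid plexus in the punch accounts for C3, in the BLA or in other regions, was not tested.

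**Figure D2:**
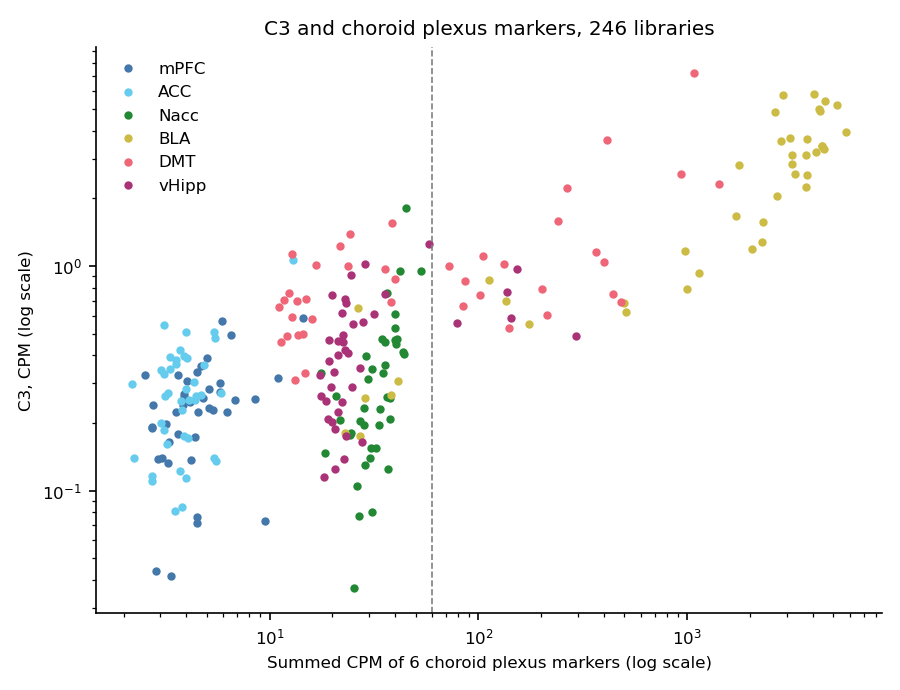
C3 (CPM, log y axis) against the summed level of 6 choroid plexus markers (CPM, log x axis) in all libraries, colored by region; the dashed line is the limit of 60 CPM. The 6 BLA libraries left of the line lie between 0.176 and 0.649 CPM of C3 and the 35 right of it between 0.551 and 5.81 CPM.

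The same 6 BLA libraries changed the place of the BLA for other genes. C4b there was 7.31, 9.85 and 19.3 CPM, against 9.2, 17.9 and 34.1 CPM in the other 35, and the difference of the BLA no longer passed to the mPFC (log2 -0.04 ± 0.28, adjusted p = 0.928), ACC (-0.21 ± 0.28, adjusted p = 0.557) or Nacc (-0.30 ± 0.28, adjusted p = 0.45). C1ra was 0.228, 0.403 and 0.658 CPM in the 6 and 0.18, 0.998 and 2.28 CPM in the 35, and its order against the Nacc turned (log2 -0.90 ± 0.37, adjusted p = 0.0489). Serping1 was 1.23, 1.49 and 2.58 CPM in the 6 and 1.95, 3.44 and 5.23 CPM in the 35, and BLA then fell below mPFC by 1.08 on the log2 scale (log2 -1.08 ± 0.33, adjusted p = 0.00351). Serping1 in the BLA also fell below the ACC (log2 -0.89 ± 0.33). The difference of C1ra in DMT vs. BLA shrank from log2 -1.62 to -0.43 ± 0.40 and no longer passed. C1qa was higher in the 6 libraries, at 23.2, 28.6 and 32.1 CPM, than in the 35, at 17.8, 23.2 and 30.9 CPM. The content of neighboring tissue varied in the BLA as well. Over its 41 libraries, C1qa had a correlation of 0.871 with the summed Nacc markers and of -0.718 with the BLA markers, while C3 (-0.678), C1ra (-0.659), Serping1 (-0.614) and C4b (-0.34) went against the Nacc markers. Its part in the shifts was not tested. The BLA estimates rest on 6 libraries here, and their standard errors are larger than in the fit of all libraries. No ELA_SAFit2 NI library is among these 6, since the lowest C3 of that group in the BLA was 0.8641 CPM. The BLA average under the limit therefore lacks a group that the mPFC, ACC and Nacc averages hold.

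The promoter of C3 is shown for comparison with that of C1qb, and its capitals mark TTGCGAAA, a match to TTGCNNAA, a pattern known for C/EBP factors, 45 to 38 bases before the start (RefSeq, GRCm38.p6, chr17:57228137-57228386, minus strand; C3 itself lies at chr17:57203970-57228136).
C3 promoter: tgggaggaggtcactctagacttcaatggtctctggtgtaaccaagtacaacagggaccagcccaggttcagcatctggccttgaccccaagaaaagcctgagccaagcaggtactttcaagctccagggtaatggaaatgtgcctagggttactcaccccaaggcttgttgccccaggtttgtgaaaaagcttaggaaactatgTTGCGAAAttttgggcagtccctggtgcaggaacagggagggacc
These letters occur on either strand in 9.56% of 32851 promoters, and in no other of the 6 complement genes with a promoter in the table. Patterns known for NF-kB and for interferon regulatory factors were in 0 of the 6 and in 0.36% and 2.98% of all promoters. The absence of these letters from the window says nothing of the factors.

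The receptors were low and nearly even across regions. C3ar1 (chr6:122847138-122856161), the receptor of the C3a fragment on microglia and other myeloid cells, ranged from 0.446 over 0.9132 to 2.095 CPM in the mPFC and from 0.3429 over 0.6917 to 1.405 CPM in the DMT. Its DMT mean was the lowest, by log2 -0.44 ± 0.09 against the mPFC (adjusted p = 4.6e-06) and by 0.19 under the BLA, the next in order (adjusted p = 0.0432). The 4 other steps in the order did not pass (adjusted p between 0.208 and 0.872). C5ar1 (chr7:16246743-16259540), the C5a receptor, had a median of 4 to 6 counts per library in the regions and 0 counts in 5 libraries (1 ACC, 2 Nacc, 1 BLA and 1 DMT). Its means lay between 0.1676 ± 0.1053 CPM in the BLA and 0.2377 ± 0.1293 CPM in the vHipp. This pair alone passed (log2 0.52 ± 0.20, adjusted p = 0.0146), neither set alone gave a call in any of the 15 pairs, and the vHipp and DMT also differed with the mouse as a replicate block (adjusted p = 0.0289). The low counts limit how firmly C5ar1 can be placed in any order.

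Serping1 (chr2:84765387-84775444) encodes C1 inhibitor, the inhibitor of C1r and C1s. Its order differed from that of the genes it acts on. It was highest in the vHipp, at 4.767, 7.301 and 13.47 CPM, next in the DMT, at 3.76, 5.134 and 8.332 CPM, and lowest by mean in the ACC, at 1.073, 2.674 and 6.884 CPM. Every vHipp library lay above the ACC mean of 2.906 ± 1.221 CPM, though the ranges of the 2 regions overlap. The vHipp exceeded the ACC by log2 1.38 ± 0.13 (adjusted p = 5.24e-21) and the DMT by 0.49 (adjusted p = 0.000175), and the DMT exceeded the Nacc by 0.55 (adjusted p = 3.19e-05). The steps from Nacc to mPFC, BLA and ACC did not pass (adjusted p = 0.284, 0.958 and 0.156). The Nacc mean was 3.7 CPM with and 3.91 CPM without the 12 libraries.

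How the genes varied between mice within a region was described with the Pearson correlation of log2 levels after removal of the group means, over 41 mice per region and averaged over the 6 regions. The points share a library, its depth and its cell composition, so the values are descriptions. The C1q chains varied together, at 0.809 for C1qa and C1qc, 0.792 for C1qb and C1qc and 0.791 for C1qa and C1qb, and the range over regions for the last pair was 0.6 to 0.911. Among all genes tested, the next most alike were Csf1r, the receptor that keeps microglia alive, with C1qa (0.586), and Csf3r, a myeloid growth factor receptor, with C1qb (0.65) and C1qc (0.611). Their correlation with the summed microglial markers was 0.622, 0.568 and 0.601. The receptors followed them less, C3ar1 at 0.195 to 0.31 and C5ar1 at 0.276 to 0.351.

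The other complement genes each had their own closest genes. C1ra went with C1s1 (0.693), the gene of the protease that C1r activates, then with Tbata (0.419) and Crtac1 (0.414), and its correlation with the C1q chains was between -0.253 and -0.187. C4b went with Gfap (0.815), Vim (0.667) and Cd9 (0.666). Gfap and Vim encode filaments that astrocytes make more of when they become reactive, whereas the summed level of 9 astrocyte markers, of which Gfap is 1, had a correlation of 0.19 with C4b, below those of the ependymal (0.499), meningeal fibroblast (0.488) and choroid plexus lists (0.401). C3 went with Prlr (0.636), Foxj1 (0.609) and Ccdc153 (0.605), the last 2 of them in the list of ependymal markers, and with the summed choroid plexus and ependymal markers (0.6 and 0.655; in the BLA 0.927 and 0.951). Serping1 went with Igf2 (0.849), Col1a2 (0.842) and Pcolce (0.818), the first 2 of them in the list of meningeal fibroblasts, whose summed level had a correlation of 0.786 with it (0.943 in the Nacc). The closest genes of C3ar1 were Mrc1 (0.399), a marker of perivascular macrophages, Gpt2 (0.397) and Slc41a1 (0.395), and those of C5ar1 were C5ar2 (0.396), the second C5a receptor, Mmrn2 (0.36) and C1qc (0.351).

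**Figure D3:**
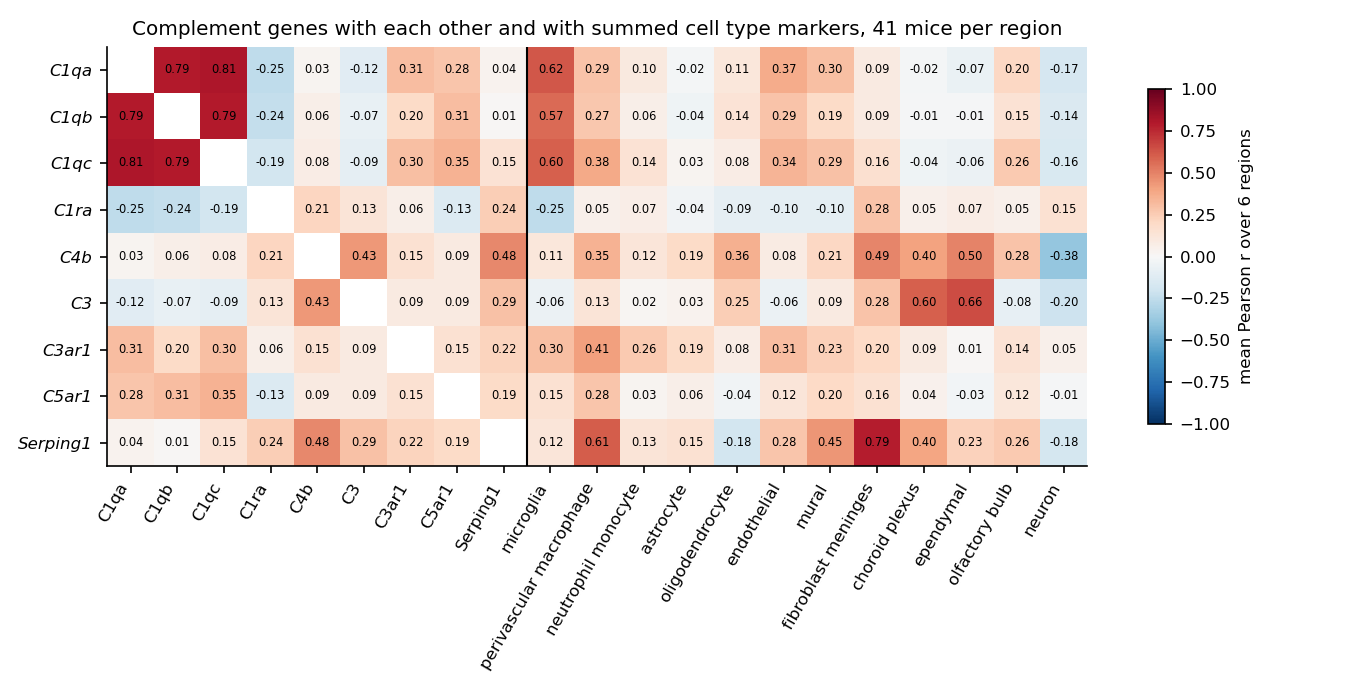
Mean over 6 regions of the Pearson correlation (color and number) of each complement gene (rows) with the others and with the summed genes of 12 marker lists (columns), over 41 mice per region. The C1q chains form a block of 0.79 to 0.81, C3 is closest to ependymal and choroid plexus markers and Serping1 to meningeal fibroblasts.

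Whether a mouse that was high in 1 region was high in others was described with the same correlation between regions. Over all 15 pairs of regions its mean was 0.336 for C1qb, 0.327 for C1qc, 0.278 for C5ar1, 0.277 for C1ra, 0.218 for C1qa, 0.204 for C4b, 0.141 for C3, 0.116 for C3ar1 and 0.047 for Serping1. Without the Nacc, where libraries match other mice, the mean correlation over 10 pairs of regions was 0.41 for C1qb, 0.399 for C1ra, 0.367 for C1qc, 0.318 for C5ar1, 0.258 for C1qa and 0.232 for C4b. It was 0.088 for C3ar1, 0.083 for C3 and 0.018 for Serping1. Over the same 10 pairs the median of 17316 genes was 0.105, and 5% of genes lay above 0.489. C3ar1, C3 and Serping1 were below the median gene, the others of the 9 genes above it, and none was in the top 5%. C4a and C1rb, the copies of C4b and C1ra, had 0.852 and 0.579 over these 10 pairs. For the summed counts of C1ra and C1rb the value was 0.084, lower than for either copy.

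The next question was whether adversity or SAFit2 left a difference in the adult complement genes. Within each region and set, 0 of 54 tests passed in edgeR for ELA_Veh vs. Ctrl_Veh in either set, against 0.00105% of all tests. At an unadjusted p under 0.05 there were 2 in NI and 3 in SI mice, and DESeq2 called 0 and 0. For ELA_SAFit2 vs. ELA_Veh 0 passed in either set (0.000526% of all tests), with 5 and 3 at an unadjusted p under 0.05, and DESeq2 called 0 and 1. For ELA_SAFit2 vs. Ctrl_Veh 0 passed (0% of all tests), with 6 and 5 at an unadjusted p under 0.05, and DESeq2 called 0 and 0. These comparisons share groups and are not independent of each other. Of the 15722 to 15992 genes tested per region, 487 to 1304 had an unadjusted p under 0.05 for ELA_Veh vs. Ctrl_Veh in NI mice. In SI mice the range was 214 to 1963. For ELA_SAFit2 vs. ELA_Veh it was 467 to 1823 (NI) and 322 to 780 (SI). For ELA_SAFit2 vs. Ctrl_Veh it was 295 to 801 and 240 to 1538. The shares of all genes called by DESeq2 are not given here. The smallest unadjusted p-values for ELA_Veh vs. Ctrl_Veh were those of C5ar1 in the ACC of NI mice (log2 1.11 ± 0.45, adjusted p = 0.949, edgeR) and of C1qb in the ACC of SI mice (log2 -0.25 ± 0.09, adjusted p = 0.339, edgeR).

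C1ra in the mPFC stood out among these. In NI mice it was 1.249, 1.578 and 2.466 CPM (lowest, median, highest of 7) in Ctrl_Veh, 1.403, 1.962 and 2.899 CPM in ELA_Veh and 0.4457, 0.8954 and 1.369 CPM in ELA_SAFit2. All 7 ELA_SAFit2 mice lay below all 7 ELA_Veh mice. In SI mice it was 1.196, 1.58 and 1.848 CPM (of 6), 0.8619, 1.619 and 4.112 CPM (of 7) and 0.1073, 0.8095 and 0.9893 CPM (of 7). Here the ELA_SAFit2 and ELA_Veh mice overlap between 0.8619 and 0.9893 CPM, while ELA_SAFit2 and Ctrl_Veh do not overlap. ELA_SAFit2 was below ELA_Veh by log2 -1.11 ± 0.30 in NI (adjusted p = 0.883, edgeR) and -1.44 ± 0.31 in SI mice (adjusted p = 0.253, edgeR). DESeq2 called the latter (log2 -1.45, adjusted p = 0.00762). The average of both sets, a contrast added after these values were seen, was log2 -1.28 ± 0.21 with an adjusted p of 0.00907 in edgeR, and it passed without each of the 41 mice in turn (log2 -1.342 to -1.121, adjusted p = 0.00249 to 0.0281). Here 0.0126% of the 15812 genes tested in the mPFC were called. In this averaged contrast 1 of 54 tests passed for ELA_SAFit2 vs. ELA_Veh (0.00316% of all tests), with 3 at an unadjusted p under 0.05. For ELA_Veh vs. Ctrl_Veh and ELA_SAFit2 vs. Ctrl_Veh 0 passed in edgeR (0.00105% and 0.00842% of all tests), with 3 and 4 at an unadjusted p under 0.05, and DESeq2 called 0 and 1. The last was also C1ra in the mPFC (edgeR log2 -0.99 ± 0.22, adjusted p = 0.199, and DESeq2 log2 -0.999, adjusted p = 0.0105). In the averaged contrast, 445 to 1052 of all genes per region had an unadjusted p under 0.05 in edgeR for ELA_Veh vs. Ctrl_Veh. For ELA_SAFit2 vs. ELA_Veh there were 571 to 1063, and for ELA_SAFit2 vs. Ctrl_Veh 327 to 1140.

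C1ra in other regions was lower in ELA_SAFit2 than in ELA_Veh by log2 -0.91 ± 0.22 in the ACC (adjusted p = 0.292), -0.49 ± 0.22 in the vHipp (adjusted p = 0.872), -0.41 ± 0.32 in the BLA (adjusted p = 1.0) and -0.32 ± 0.30 in the Nacc (adjusted p = 1.0), and 0.09 ± 0.25 higher in the DMT (adjusted p = 0.97), none of which passed. Whether the effect differed between regions was not tested. In the ACC the ELA_SAFit2 mice ranged from 0.382 over 2.139 to 3.025 CPM in NI and from 0.2431 over 1.434 to 3.029 CPM in SI, and the ELA_Veh mice from 2.142 over 3.013 to 5.387 CPM and from 1.842 over 3.604 to 5.213 CPM, so the groups overlap.

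Counts assigned to the neighboring copy C1rb went the other way. C1rb in the mPFC had medians of 0.1183 and 0.07125 CPM in Ctrl_Veh (NI and SI), 0.0853 and 0.1171 CPM in ELA_Veh and 0.3309 and 0.3084 CPM in ELA_SAFit2, a difference of log2 0.93 ± 0.49 to ELA_Veh (adjusted p = 0.759, edgeR). Over all regions of a mouse, C1rb was higher in ELA_SAFit2 by log2 1.40 ± 0.37 than in ELA_Veh (adjusted p = 0.323) and by 1.87 ± 0.39 than in Ctrl_Veh (adjusted p = 0.0906), neither of which passed. The share of C1ra in the counts of both copies, over the 5 regions other than the Nacc, was 91.7% at the lowest, 94.8% at the median and 98.1% at the highest in 13 Ctrl_Veh mice. In 14 ELA_Veh mice it was 60%, 94.7% and 97.5%, and in 14 ELA_SAFit2 mice 21.9%, 68.6% and 97%. Below the lowest Ctrl_Veh mouse lay 2 ELA_Veh mice and 9 ELA_SAFit2 mice, 4 of 7 in NI and 5 of 7 in SI. The other 5 ELA_SAFit2 mice lay within the Ctrl_Veh range, so the group held both kinds of mice. With the counts of both copies summed, the mPFC difference to ELA_Veh, averaged over the sets, was log2 -0.92 (adjusted p = 0.0236) and that to Ctrl_Veh log2 -0.60 (adjusted p = 0.929). Whole litters were assigned to a condition, and the labels do not give the litter of a mouse, so litter and condition cannot be told apart for this gene. Marker lists in the mPFC overlapped between the conditions; meningeal fibroblast markers, for example, summed to 58.7 to 1612 CPM in Ctrl_Veh, 78.56 to 1097 CPM in ELA_Veh and 115.5 to 865.7 CPM in ELA_SAFit2 mice.

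**Figure D4:**
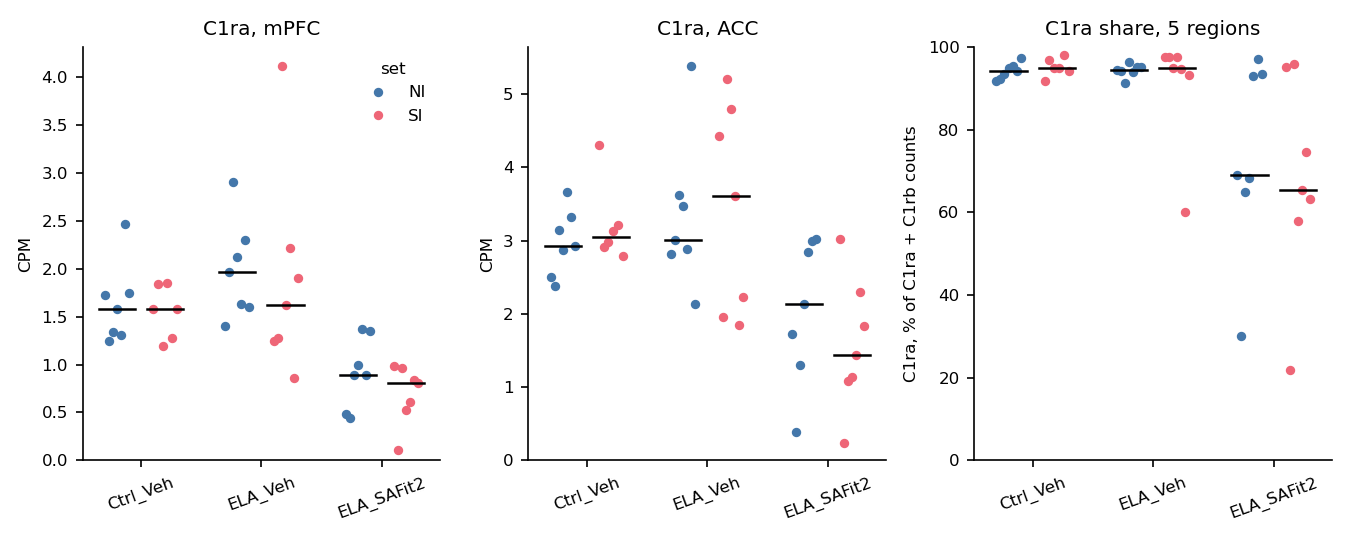
C1ra (CPM, y axis) in the mPFC and ACC, and the share of C1ra in the counts of C1ra and C1rb (percent, 5 regions without the Nacc), by condition and set; each point is 1 mouse and the bar is the median. In the mPFC all NI ELA_SAFit2 mice lie below all NI ELA_Veh mice, and 9 of 14 ELA_SAFit2 mice have a share under 91.7%, the lowest Ctrl_Veh mouse.

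When the counts of a mouse were added up over its 6 regions, 0 of the 9 genes passed in any of the 3 condition comparisons. For ELA_Veh vs. Ctrl_Veh edgeR called 0% of all genes, and 0 of the 9 had an unadjusted p under 0.05. The mean over regions of C3 was 0.7657, 1.019 and 1.459 CPM in Ctrl_Veh NI mice and 0.365, 0.5515 and 1.701 CPM in ELA_Veh NI mice, and log2 -0.44 ± 0.23 over both sets (adjusted p = 0.773, edgeR) was the largest difference of this comparison in size. In the BLA, where C3 was highest and moved with choroid plexus markers, its means were 3.591 and 3.398 CPM in Ctrl_Veh (NI and SI). They were 1.696 and 2.011 CPM in ELA_Veh and 2.105 and 2.023 CPM in ELA_SAFit2. The part of choroid plexus in the condition differences of C3 was not tested. For ELA_SAFit2 vs. ELA_Veh (0% of all genes) only C1ra had an unadjusted p under 0.05, at log2 -0.68 ± 0.17 (adjusted p = 0.289, edgeR). For ELA_SAFit2 vs. Ctrl_Veh (0.00575% of all genes) C1ra (log2 -0.59 ± 0.17, adjusted p = 0.565) and C3 (log2 -0.50 ± 0.23, adjusted p = 0.999) did. DESeq2 called 0 of the 9 in each of the 3, and edgeR called 0 in each without the Nacc. In the order given, 1162, 974 and 740 of all 17381 genes had an unadjusted p under 0.05 in edgeR. The C1q chains differed by at most 0.08 on the log2 scale in these comparisons, with standard errors of 0.04 to 0.05. The test of whether an effect differed between SI and NI mice passed for 0 of the 9 genes, both for adversity (0% of all genes) and for SAFit2 (0.0403%), with 0 at an unadjusted p under 0.05 and 0 calls by DESeq2 in both.

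**Figure D5:**
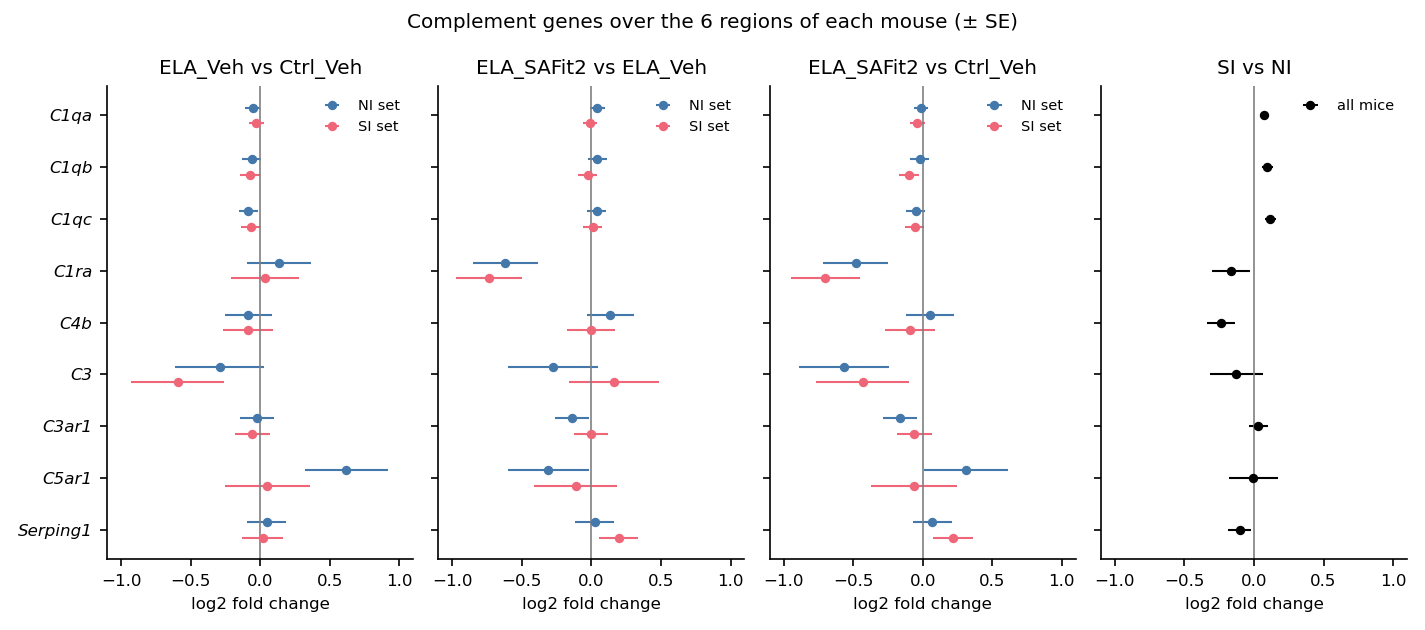
Difference of each complement gene (log2 fold change ± SE, x axis) with the counts of each mouse added up over 6 regions, for the 3 condition comparisons in NI and SI mice and for SI vs. NI over all mice. None passed the adjusted threshold; C1ra was lowest in both sets for ELA_SAFit2 vs. ELA_Veh, and the C1q chains were 0.08 to 0.12 higher in SI mice.

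The last question was the response to 10 minutes with a conspecific. Over regions, C1qc had means of 12.22, 14.06 and 16.55 CPM (lowest, median and highest of 21 NI mice) and 12.83, 15.09 and 18.11 CPM (of 20 SI mice), which overlap. It was higher in SI mice by log2 0.12 ± 0.04, which missed the threshold in edgeR (adjusted p = 0.0571) and passed in DESeq2 (adjusted p = 0.0359). It also passed in edgeR in 7 of the 41 fits that left out 1 mouse. C1qa was at log2 0.08 ± 0.03 (adjusted p = 0.121), C1qb at 0.10 ± 0.04 (adjusted p = 0.134) and C4b at -0.24 ± 0.10 (adjusted p = 0.145). C4b was 11.12, 15.74 and 25.15 CPM in NI and 9.517, 13.09 and 20.56 CPM in SI mice, again with overlap. In all, 0 of the 9 genes passed in edgeR, where 8.56% of all genes did, 4 had an unadjusted p under 0.05 and DESeq2 called 1. An unadjusted p under 0.05 was met in edgeR by 3892 of all 17381 genes. The 15 microglial markers summed to 340.3, 363.8 and 398.5 CPM in NI and 326.9, 355.5 and 388.1 CPM in SI mice, so their median was not higher in SI mice. Without the Nacc, edgeR again called 0 of the 9. Within regions 0 of 54 tests passed in edgeR, with and without the mismatched Nacc libraries, and 0 in DESeq2, with 7 at an unadjusted p under 0.05, all of them C1q chains that were higher in SI mice. Of all genes, mPFC had 7.4% called, ACC 4.15%, vHipp 1.21%, DMT 1.6%, BLA 1.49% and Nacc 0%. An unadjusted p under 0.05 was met in edgeR by 3081 of 15812 genes in the mPFC and 2671 of 15722 in the ACC. The others had 2027 of 15722 (vHipp), 2008 of 15847 (DMT), 2360 of 15992 (BLA) and 391 of 15881 (Nacc). As the chains vary together and the regions share mice, nothing is read from the 7 tests.

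Of 50 other complement genes, 42 passed the filter on gene type and counts and were tested over regions. C4a was not tested, since the annotation used here types it as a processed transcript and not as protein-coding. None of the 42 was called in a condition comparison. In SI against NI mice 2 rose and 4 fell, where 8.56% of all genes were called, and the median of the 42 was log2 -0.023, against -0.001 over all genes. The 2 that rose were Cfp, the gene of properdin, which stabilizes the enzyme that cleaves C3 (log2 0.09, adjusted p = 0.0299), and Csmd2 (0.09, adjusted p = 0.0188). C1s2, a C1s protease gene, fell by 0.29 on the log2 scale (adjusted p = 0.0137), C8g, of the membrane attack complex, by 0.19 (adjusted p = 0.0359), Itgam, a subunit of complement receptor CR3 on microglia, by 0.11 (adjusted p = 0.0059) and Vtn, which encodes vitronectin, by 0.12 (adjusted p = 0.0472). Within regions Itgam fell in the ACC by 0.14 (adjusted p = 0.0297) and Csmd2 rose in the mPFC by 0.23 (adjusted p = 0.00487). Between DMT and Nacc, the outer regions of C1qa, 36 of the 42 differed, 18 in each direction, where 83% of all genes did, with a median of -0.038 against -0.002 over all genes. Cd59b, which encodes an inhibitor of the membrane attack complex, was highest in the DMT against the Nacc (log2 2.01, adjusted p = 4.61e-36), followed by Sez6l (1.28, adjusted p = 4.78e-95), and Sez6 (-2.39, adjusted p = 5.62e-108) and C8b (-2.27, adjusted p = 7.27e-09) were lowest.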

How the data were processed

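Punches of 6 brain regions from 41 mice were sequenced as stranded poly-A libraries. The deposited table holds estimated counts, which the authors made from the reads with salmon, summed to genes and merged over all libraries, of which 12.12% are not whole. The submitters' processing notes also name STAR, DESeq2 and the builds GRCm39 and mm39, and the annotation release is not given in the sources used here. The counts carry no coordinates, so gene positions and lengths are those of GENCODE M21 (GRCm38), matched by gene ID for 52073 of 56691 genes, and promoters are those of RefSeq (GRCm38.p6). How salmon divided reads between near-identical genes could affect C1ra and C4b and was not examined.

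Counts were rounded and tested in edgeR 4.0.16 (R 4.3.3) with the quasi-likelihood test, TMM scaling and Benjamini-Hochberg adjustment over all genes tested, at a threshold of 0.05. Genes were kept if protein-coding where a type was given, with 100 or more counts in total and 6 or more libraries above 0. Region pairs came from 1 fit of all libraries, conditions from 1 fit per region and from the counts of each mouse added up over regions. DESeq2 1.42.0, limma 3.58.1, relative log expression (RLE) scaling in edgeR, no filter, a stricter filter (CPM over 1 in 6 libraries), each set alone, the mouse as a replicate block, leaving out the Nacc or its mismatched libraries and leaving out each mouse were alternatives. Summing near-identical copies, the choroid plexus limit, the average of both sets and the fits without each mouse were added after the data were seen. Library identity was checked with 60 genes whose levels differ between mice. The fits were tested on simulated data. Correlations used log2(CPM + 0.1).

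The mouse numbers in the labels pair the libraries, since the 6 regions come from the same animal. Total counts of 20804219 to 43351397 limit the precision of C3, C5ar1 and C1ra most. Replicates are separate mice, but their litters are not given. The 9 genes and the gene lists were chosen with earlier results of these data known. Named besides these 9 were, for each, the 3 genes with the highest mean correlation, other complement genes called in a condition or social comparison, and the 2 highest and 2 lowest of these between the outermost regions of C1qa. C1rb and C4a were named as near-identical copies.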

Additional observations from a re-analysis of the deposited data

Results flagged for a closer look

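Of 66 groups of mice examined, 10 had a highest sample set apart from the others of its group by Dixon's criterion, which chance meets in about 1 in 20 groups. As means over the 6 regions of a mouse, C1qa reached 28.1 CPM in an ELA_Veh SI mouse, where the nearest was 24.9, and C1qb reached 19.1 CPM in that group, where the nearest was 15.6. C1ra reached 2.22 CPM in an ELA_Veh NI mouse (nearest 1.75). C4b reached 25.2 CPM in a Ctrl_Veh NI mouse (nearest 17.3) and 20.6 CPM in an ELA_Veh SI mouse (nearest 14.1). Serping1 reached 6.14 CPM in a Ctrl_Veh NI mouse (nearest 4.49) and 5.07 CPM in a Ctrl_Veh SI mouse (nearest 3.99). In single regions, C1ra in the mPFC reached 2.47 CPM in a Ctrl_Veh NI mouse (nearest 1.74) and 4.11 CPM in an ELA_Veh SI mouse (nearest 2.21), and C1ra in the ACC reached 4.31 CPM in a Ctrl_Veh SI mouse (nearest 3.21).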

How the results depend on the processing

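Of 359 alternative values of the counts of called genes and of C1ra in the mPFC, 346 kept their call and size. Another 11 counts moved and 2 tests newly passed. C1ra in the mPFC kept its direction, while a count has no direction that could reverse. Single region differences did turn in libraries under the choroid plexus limit. C3 in DMT vs. BLA went from log2 -1.11 to 1.32 (adjusted p = 0.00295, edgeR). C1ra in BLA vs. Nacc went from log2 0.34 to -0.90 (adjusted p = 0.0489, edgeR). The number of the 135 region tests that passed was 87 in edgeR, 93 with the mouse as a replicate block, which added 6, 90 with DESeq2, 87 with RLE scaling in edgeR, 82 without a filter, 83 without the mismatched Nacc libraries, 88 with copies summed and 79 in libraries under the choroid plexus limit. Without the mismatched libraries 4 tests were lost, C1qa in BLA vs. mPFC (adjusted p = 0.0595), C1ra in BLA vs. Nacc (0.18), C3ar1 in Nacc vs. mPFC (0.0989) and C4b in vHipp vs. BLA (0.054). The stricter filter left 120 tests, of which 86 passed. DESeq2 called 1 gene, C1ra in the mPFC, in place of 0 for ELA_SAFit2 vs. ELA_Veh within regions and for ELA_SAFit2 vs. Ctrl_Veh with both sets averaged (log2 -0.999, adjusted p = 0.0105). For SI vs. NI over regions DESeq2 and limma-trend each called 1 in place of 0, and leaving out each mouse gave 0 to 1 (C1qc in 7 fits, each without 1 mouse: 2 ELA_SAFit2 SI, 2 ELA_Veh NI and 1 each of Ctrl_Veh NI, Ctrl_Veh SI and ELA_Veh SI). C1ra in the mPFC for ELA_SAFit2 vs. Ctrl_Veh ranged from log2 -1.056 to -0.897 without each mouse and passed only without the ELA_Veh SI mouse that had the highest value (4.11 CPM) (log2 -0.992, adjusted p = 0.0488). The causes were not tested. A median of 4 to 8 counts for C5ar1 and for C3 in cortex and C1ra in the DMT limits what could be detected there.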
